A study of Bos taurus with 11 samples.

Results

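Transcripts of 9 pluripotency and epiblast factors (NANOG, SOX2, POU5F1, DPPA2, DPPA3, DPPA4, LIN28A, SALL4 and KLF4) were followed in single bovine blastocysts after base editing of GATA3 or CDX2, both transcription factors of the trophectoderm (TE). The genes were chosen by symbol, and each symbol was matched to the RefSeq accessions of the deposited tables. Of the 9, 8 were listed, each by 1 curated transcript, among 8576 transcripts in the table of GATA3 KO and 12047 in the table of CDX2 KO. DPPA3, an oocyte-derived factor that protects methylated DNA in the zygote, was not analysed here.

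The groups were early blastocysts of day 7 produced in vitro, 3 of WT control, 4 of GATA3 KO and 4 of CDX2 KO, with 1 library of polyadenylated RNA per embryo. All of them, the WT control included, had been injected as zygotes with mRNA of BE3, a cytosine base editor. GATA3 KO and CDX2 KO embryos had received in the same injection a mix of guide RNAs against GATA3 or CDX2, which place premature stop codons in the coding sequence. An injected embryo can be mosaic, and no editing outcome of single embryos was used here. The same 3 WT control embryos are in both tables, so the comparisons share their controls. KO embryos are named by the number of their column, and values of single embryos are given in the order of these numbers, which are 1 to 3 in WT control, 3 to 6 in GATA3 KO and 2 to 5 in CDX2 KO. The labels do not say whether embryos came from 1 fertilization batch or several, so the p-values measure the spread between these embryos.

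In a blastocyst the inner cell mass gives rise to the epiblast, which forms the embryo proper, and to the primitive endoderm, while the outer TE layer forms placental tissue. POU5F1 (OCT4), SOX2 and NANOG are the core DNA-binding factors of pluripotent cells and activate each other's genes together with SALL4 and KLF4. DPPA2 and DPPA4 are chromatin proteins that work as a pair and keep developmental promoters open. LIN28A is an RNA-binding protein that blocks maturation of let-7 microRNAs. In cattle OCT4 is not confined to the inner cell mass at this stage. A whole blastocyst was sequenced, so fewer cells of a type and less RNA per cell cannot be told apart.

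Recovered totals ran from 150057 to 540775 counts per embryo in the table of GATA3 KO, whereas that of CDX2 KO spanned 100731 to 662962 counts and CDX2 KO embryo 3 was the shallowest. A floor of 3 counts corresponded to 1.29 to 4.66 normalized counts in the first table and to 1.61 to 6.99 in the second. The targeted GATA3 transcript lay between 71.3 and 87.6 in WT control and between 9.85 and 13.1 in GATA3 KO embryos (log2 fold change -2.62, adjusted p = 7.64e-05 from limma, the test described below). The targeted CDX2 transcript lay between 6.88 and 11.1 in WT control and between 1.66 and 4.66 in CDX2 KO embryos, the latter resting on 2 to 8 counts, and did not pass (-1.16, adjusted p = 0.940 from limma with no filter). CDX2 was also low in GATA3 KO, at 4.66 to 9.73 in WT control against 0 to 3.45 (-1.50, adjusted p = 0.175 from limma with no filter), and GATA3 in CDX2 KO was at 96.4 to 128.8 against 30.3 to 122.6 (-0.51, adjusted p = 0.900 from limma). A premature stop codon need not lower a transcript, so these levels check the labels only in part. Y-linked transcripts summed to 29 to 98 counts in WT control embryos of the table of GATA3 KO, to 68 in GATA3 KO embryo 6, and to 0, 0 and 2 in GATA3 KO embryos 3, 4 and 5. Among CDX2 KO embryos, embryo 5 had 155 such counts and embryos 2, 3 and 4 had 0. Embryos with at least 3 such counts were thus all 3 of WT control but 1 of 4 in each KO group. The presence of Y-linked transcripts and the knockout cannot be told apart in the other KO embryos, and a fit with this presence as a covariate sets that 1 KO embryo alone against WT control. Of the oocyte list, 3 of 15 genes had a row in the table of GATA3 KO, with a summed level of 7.89 to 21.8 in WT control and 5.79 to 18.1 in GATA3 KO embryos. Of 10 cumulus cell genes, 2 were listed there, at 6.48 to 15.5 and 2.38 to 7.24. In the table of CDX2 KO, 10 oocyte genes summed to 20.3 to 44.7 in WT control and 30.6 to 63.0 in CDX2 KO, and 9 cumulus genes to 22.8 to 51.6 and 33.8 to 69.9. None of the listed markers was at 0 in all embryos of a group, and the part of such cells in the results was not tested.

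In GATA3 KO blastocysts, DPPA2 was the 1 factor of the set that passed the test, and it rose. SALL4 was lower in every GATA3 KO embryo than in any WT control embryo but did not pass. SOX2 and LIN28A had lower means, KLF4 a higher one, NANOG varied widely between the KO embryos, and POU5F1 and DPPA4 had log2 fold changes within 0.03 of 0. The test was limma on log2(normalized count + 1) over the 4271 transcripts with a mean of at least 10, and a transcript passed when it differed by 1.5-fold or more upwards, or fell to 0.6 or less, at a Benjamini-Hochberg adjusted p up to 0.05. Of the 8 factors listed, 7 reached that mean, and 1 rose and 0 fell, where 2.01% of all transcripts tested passed, 1.55% rising and 0.468% falling. Groups did not overlap for 2 of the 7, against 18.9% of all transcripts tested (11.9% higher in GATA3 KO and 7.05% lower). At an unadjusted p under 0.05 stood 3 of the 7, against 22.6%. Of these, DPPA2 and SOX2 reached the mean of 10 through the group in which they were higher. Their means in the other group were 6.35 (DPPA2, WT control) and 8.58 (SOX2, GATA3 KO). The median log2 fold change was -0.03 over the 7 factors and 0.11 over all transcripts tested.

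DPPA2 (NM_001206470) had normalized counts of 9.47, 6.48 and 3.11 in WT control, against 28.9, 37.0, 15.5 and 27.9 in GATA3 KO. All 4 GATA3 KO embryos lay above all 3 WT control embryos. The recovered counts behind these values were 12, 6 and 2 in WT control and 20, 86, 13 and 34 in GATA3 KO, so the WT control level was near the floor, and under it in WT control embryo 3. Means were 6.35 ± 3.18 (SD, n = 3) for WT control against 27.3 ± 8.90 (SD, n = 4) for GATA3 KO, a ratio of 4.30. On the log2(normalized count + 1) scale the fold change of DPPA2 was 1.99 (standard error 0.41, 95% interval 1.13 to 2.84, adjusted p = 0.0232 from limma), or 1.87 relative to the median of all transcripts tested. With no filter the log2 fold change was the same and the adjusted p was 0.0136 from limma. This was the ninth largest rise among the transcripts tested, with 0.187% of them rising more. The rank holds for a pseudocount of 1 and for a set that DPPA2 entered through its GATA3 KO values. With pseudocounts of 0.1 and 5 the log2 fold change of DPPA2 was 2.158 and 1.504. It passed in both fits (adjusted p = 0.0294 and 0.0198 from limma), so its size depended on the pseudocount and its call did not.

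The call on DPPA2 depended on single embryos, although its direction did not. When each embryo was dropped, the estimate stayed between 1.62 and 2.29. The adjusted p from limma exceeded 0.05 in 4 of those 7 fits, at 0.103 without WT control embryo 2, 0.0688 without WT control embryo 3, 0.0869 without GATA3 KO embryo 3 and 0.0875 without GATA3 KO embryo 4. In the same 4 fits 1, 18, 1 and 2 of all transcripts tested passed, against 86 with no embryo left out. On the recovered counts DPPA2 also passed with edgeR (1.93, adjusted p = 0.0294), by which 1.33% of transcripts were higher and 1.62% lower, and with DESeq2 (1.94, adjusted p = 0.0127), by which 1.78% were higher and 1.92% lower. Embryo 6 of GATA3 KO, which held Y-linked counts, had a DPPA2 level of 27.9, within the range of the other 3 GATA3 KO embryos. The covariate fit, which compares this embryo alone with WT control, gave 2.08 and did not pass (adjusted p = 0.230 from limma).

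DPPA4 (NM_001206481), the partner of DPPA2, is its neighbour in the genome, with 0 protein-coding genes between them in the ARS-UCD2.0 annotation. Its normalized counts were 22.1, 19.5 and 18.7 in WT control, against 21.7, 22.0, 17.9 and 17.2 in GATA3 KO. The groups overlapped, and the spread of 8.98% (WT control) and 12.6% (GATA3 KO, both as SD over mean) was smaller than the 23.6% and 22.2% that counting error alone would give. The log2 fold change was -0.03 (standard error 0.29, 95% interval -0.65 to 0.59, adjusted p = 0.962 from limma), which allows for DPPA4 a fold change between 0.638 and 1.503.

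Because the genes of the pair differed, DPPA2 was also expressed per DPPA4 count within each embryo, a measure that no scaling between embryos can change and that was chosen after the values had been seen. With DPPA4 means of 20.1 and 19.7, the ratio restates the DPPA2 values, and in WT control embryo 3 it rests on 2 DPPA2 counts. The ratio was 0.429, 0.333 and 0.167 in WT control, against 1.33, 1.69, 0.867 and 1.62 in GATA3 KO. The lowest GATA3 KO embryo thus lay above the highest WT control embryo, and the geometric mean of the ratio was 4.63 times higher in GATA3 KO. In the table of CDX2 KO the same WT control embryos had ratios of 0.457, 0.370 and 0.235, and CDX2 KO embryos 2 to 5 had 0.522, 0.533, 0.688 and 0.186. There 3 of the 4 CDX2 KO embryos lay above the WT control embryos and the other one below them, with a ratio of geometric means of 1.27.

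**Figure D1:**
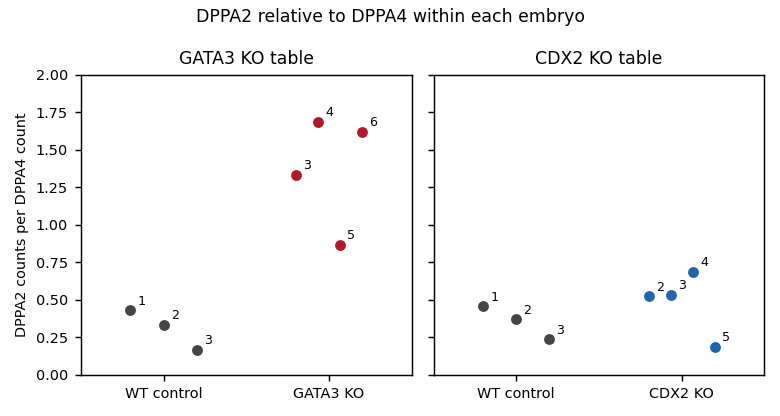
DPPA2 counts per DPPA4 count (vertical axis, no unit) in each embryo of the table of GATA3 KO (left) and of CDX2 KO (right), 1 point per embryo with its number. The 4 GATA3 KO embryos sit between 0.867 and 1.69, above the WT control embryos at 0.167 to 0.429, whereas CDX2 KO embryos run from 0.186 to 0.688.

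SALL4 (NM_001192836), a zinc finger factor that binds DNA next to OCT4, had normalized counts of 37.9, 49.7 and 35.7 in WT control, against 21.7, 24.99, 11.9 and 25.5 in GATA3 KO. Every GATA3 KO embryo was below every WT control embryo, as for 7.05% of all transcripts tested. Means were 41.1 ± 7.52 (SD, n = 3) for WT control against 21.0 ± 6.29 (SD, n = 4) for GATA3 KO, a ratio of 0.511. For SALL4 the log2 fold change was -0.98 (standard error 0.31, 95% interval -1.63 to -0.32), and its adjusted p of 0.0851 from limma did not pass. Across the scaling, filter, pseudocount and tool alternatives without a covariate the adjusted p of SALL4 ran from 0.0629 to 0.0911, and the covariate fit gave -0.66 (adjusted p = 0.616 from limma).

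SOX2 (NM_001105463), the partner with which OCT4 binds DNA in pluripotent cells, had values of 10.3, 16.2 and 29.5 in WT control, against 7.24, 8.62, 11.9 and 6.57 in GATA3 KO. WT control embryo 3 was the highest, and embryo 5 of GATA3 KO exceeded WT control embryo 1, so the groups overlapped. The means were 18.7 ± 9.87 (SD, n = 3) and 8.58 ± 2.38 (SD, n = 4). Recovered counts were 13, 15 and 19 in WT control and 5, 20, 10 and 8 in GATA3 KO. In GATA3 KO the spread of SOX2 was 27.7% of the mean, where counting error alone would give 33.9%. The log2 fold change of SOX2 was -0.95 (95% interval -1.86 to -0.04, adjusted p = 0.206 from limma), and without WT control embryo 3 it was the closest to 0 of the fits that left out 1 embryo, at -0.57.

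NANOG (NM_001025344), the homeodomain factor that marks the epiblast, had normalized counts of 12.6, 15.1 and 15.5 in WT control, against 0, 7.32, 13.1 and 21.3 in GATA3 KO. GATA3 KO embryos 3 and 4 were below all WT control embryos, embryo 5 was within their range, and embryo 6 was above them. The value of 0 in GATA3 KO embryo 3 allows a level of up to 4.34, under the lowest WT control value of 12.6. The spread was 86.5% of the mean in GATA3 KO and 10.9% in WT control embryos, where counting error alone would give 28.8% and 28.4%. Its log2 fold change was -1.10 (standard error 0.77, 95% interval -2.71 to 0.51, adjusted p = 0.412 from limma) and -0.51 with edgeR on the counts, and it ran from -1.93 to -0.57 with pseudocounts of 0.1 and 5. The limma interval leaves room for a fold change of NANOG between 0.153 and 1.42. Without GATA3 KO embryo 3 the log2 fold change was -0.16, so most of the difference in means rested on that embryo. Embryo 6, which held Y-linked counts, had the highest NANOG level of the table, and the covariate fit, which sets it alone against WT control, had the opposite sign (0.54, adjusted p = 0.883 from limma).

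POU5F1 (NM_174580), which encodes OCT4, had normalized counts of 94.7, 84.3 and 104 in WT control, against 47.8, 112, 150.1 and 96.9 in GATA3 KO. GATA3 KO embryo 3 was below the WT control range, embryo 6 within it, and embryos 4 and 5 above it. The low embryo was the same in which NANOG was 0, and its counting interval of 32.9 to 67.1 met that of the lowest WT control embryo, 66.6 to 105.2. With means of 94.4 ± 9.93 (SD, n = 3) and 102 ± 42.4 (SD, n = 4), the log2 fold change was 0.00 (standard error 0.31, 95% interval -0.66 to 0.66, adjusted p = 0.998 from limma), and other scalings placed it slightly below 0.

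KLF4 (NM_001105385), a Krüppel-like factor also found in epithelia, was at 11.8, 7.56 and 28.0 in WT control, against 14.5, 45.7, 31.0 and 13.1 in GATA3 KO. GATA3 KO embryos 4 and 5 were above all WT control embryos, and embryos 3 and 6 were inside their range. For KLF4 the log2 fold change was 0.70 (95% interval -0.25 to 1.65, adjusted p = 0.376 from limma), and embryo 6 alone against WT control gave -0.06 in the covariate fit. With 1 embryo left out the KLF4 value ran from 0.31 (without WT control embryo 2) to 1.19 (without WT control embryo 3). LIN28A (NM_001193057) had 3, 7 and 2 recovered counts in WT control, against 0, 5, 0 and 4 in GATA3 KO. These values are at or near the floor of 3 counts and under the mean of 10. Without the filter, the log2 fold change of LIN28A was -1.36 (95% interval -2.88 to 0.16, adjusted p = 0.287 from limma), with -2.90 and -0.55 at pseudocounts of 0.1 and 5, -0.64 after quantile normalization and -0.20 in the covariate fit.

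**Figure D2:**
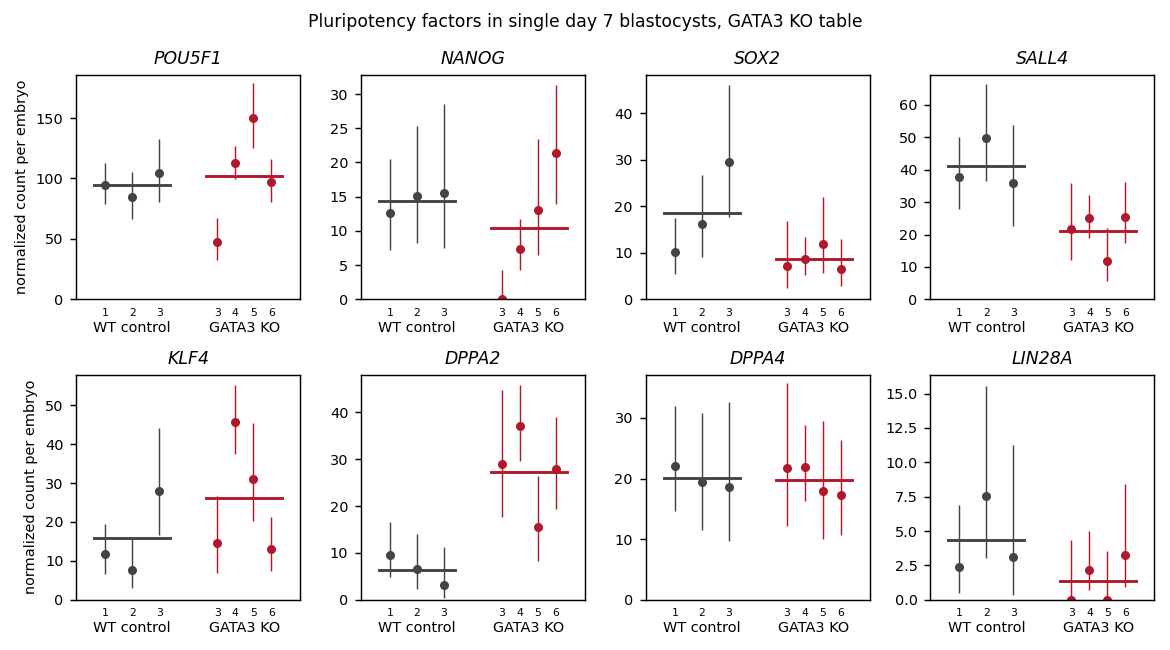
Normalized counts (vertical axes, each from 0 on its own scale) of the 8 factors in each embryo of the table of GATA3 KO. Points are embryos with their numbers below, thin bars are exact Poisson 95% intervals for counting error only (for a count of 0, up to 3 counts), and horizontal lines are group means. DPPA2 and SALL4 are the factors whose groups do not overlap, and NANOG runs from 0 to 21.3 among the GATA3 KO embryos.

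Summed levels of other lineages in the same table overlapped between the groups. Of 20 TE genes, 15 were listed, with a sum of 3544 to 8198 in WT control and 3901 to 5624 in GATA3 KO embryos. Of the 11 TE genes tested, 1 rose and 2 fell (1.55% and 0.468% of all transcripts tested), and GATA3 itself was one of those that fell. The log2 fold change was below 0 for 8 of the 11, against 1828 of the 4271 transcripts tested. Its median was -0.58, against 0.11 over all transcripts tested, and 5 of the 11 had an unadjusted p under 0.05 (22.6% of all). Of 15 primitive endoderm genes, 11 were listed, with sums of 1125 to 1274 and 935 to 1561, and 0 rose and 1 fell of the 7 tested, with a median log2 fold change of -0.42. The part of these lineages in the values of the pluripotency factors was not tested.

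In CDX2 KO blastocysts, 0 of the 8 factors passed the test and 0 were without overlap between the groups, where 5.88% of all transcripts tested had groups without overlap (2.52% higher in CDX2 KO and 3.36% lower). NANOG had the largest log2 fold change of the 7 factors tested in limma, with a lower mean in CDX2 KO, and its values were again spread widely among the KO embryos. POU5F1 was higher in 3 of 4 CDX2 KO embryos and low in the other one. Of the 5719 transcripts tested with limma, 0 passed (0% called), 187 (3.27%) had an unadjusted p under 0.05, and the recovered counts gave 1 call with edgeR (0.0175%, lower) and 9 with DESeq2 (0.0874% higher and 0.0699% lower). Of the 7 factors tested, 0 had an unadjusted p under 0.05. The median log2 fold change was 0.14 over the 7 factors and -0.15 over all transcripts tested. Recovered counts of the factors in the shared WT control embryos were at least 1.33 times those in the other table, and over all transcripts that the tables share the factor was 1.78 to 1.85, so counts are not comparable between the tables. Even counts made up 53.3% to 60.0% of the counts above 0 in this table and 46.5% to 50.4% in the other. Should 1 molecule give more than 1 count here, the floors and counting intervals of this table would be too narrow, which was not tested, and edgeR and DESeq2 were therefore also run on halved counts.

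NANOG had normalized counts of 20.3, 19.7 and 21.8 in WT control, against 4.90, 28.0, 0 and 14.0 in CDX2 KO. CDX2 KO embryos 2, 4 and 5 lay below the WT control embryos, and embryo 3 lay above them. The count of 0 in CDX2 KO embryo 4 allows a level of up to 2.49, taking each count as 1 molecule. For NANOG the log2 fold change was -1.60 (standard error 0.93, 95% interval -3.60 to 0.40, adjusted p = 0.900 from limma), and it stayed below 0 in all fits, at -0.82 with edgeR, -0.70 with DESeq2, -2.46 and -0.95 with pseudocounts of 0.1 and 5, -0.53 in the covariate fit (embryo 5 alone against WT control), and between -2.28 and -0.66 with 1 embryo left out. The spread among the CDX2 KO embryos was 105% of the mean, against 5.10% among the WT control embryos, where counting error alone would give 37.9% and 20.5%.

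In CDX2 KO embryo 4, the one without NANOG counts, SOX2 was 33.2, the second highest of the 7 embryos, and POU5F1 was 199.9, above all WT control embryos. SALL4 was 46.4 there, below all WT control embryos, and DPPA4 was 13.3, the lowest of the table. In GATA3 KO embryo 3, also without NANOG counts, POU5F1 was the lowest of its table, while SOX2 (7.24) and SALL4 (21.7) were within the range of the other GATA3 KO embryos.

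POU5F1 was at 133, 99.5 and 134 in WT control, against 172, 58.3, 199.9 and 207 in CDX2 KO. Embryo 3, the shallowest library of the table, was the one below the WT control range. The log2 fold change was 0.24 (95% interval -0.80 to 1.27, adjusted p = 0.937 from limma), and without CDX2 KO embryo 3 it was 0.66. SALL4 showed the same low embryo, with 54.6, 67.1 and 51.6 in WT control, against 58.8, 25.6, 46.4 and 54.2 in CDX2 KO. Its groups overlapped, and its log2 fold change was -0.37 (95% interval -1.26 to 0.52, adjusted p = 0.907 from limma). Without CDX2 KO embryo 3 the SALL4 value was -0.11.

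SOX2 was at 12.1, 22.1 and 40.1 in WT control, against 19.6, 16.3, 33.2 and 21.5 in CDX2 KO. All 4 CDX2 KO embryos lay inside the WT control range, and the log2 fold change was -0.02 (95% interval -1.02 to 0.99, adjusted p = 0.994 from limma). KLF4 was likewise inside the WT control range in all 4 CDX2 KO embryos, with 18.4, 9.48 and 41.3 in WT control, against 28.2, 11.7, 37.3 and 24.7 in CDX2 KO. KLF4 had a log2 fold change of 0.26 (95% interval -0.89 to 1.41, adjusted p = 0.937 from limma).

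DPPA2 was at 13.3, 7.90 and 4.59 in WT control, against 14.7, 18.6, 9.12 and 5.91 in CDX2 KO. CDX2 KO embryos 2 and 3 were above the WT control range, and 4 and 5 were inside it. Its log2 fold change was 0.44 (95% interval -0.94 to 1.82, adjusted p = 0.928 from limma), so a rise of DPPA2 of up to 3.52 times was not excluded at this spread. DPPA4 was at 29.2, 21.3 and 19.5 in WT control, against 28.2, 34.95, 13.3 and 31.7 in CDX2 KO, with a log2 fold change of 0.14 (95% interval -0.79 to 1.07, adjusted p = 0.958 from limma). LIN28A had 4, 10 and 3 counts in WT control, against 0, 2, 3 and 6 in CDX2 KO, and without the filter its log2 fold change was -0.78 (95% interval -2.55 to 0.99, adjusted p = 0.945 from limma).

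**Figure D3:**
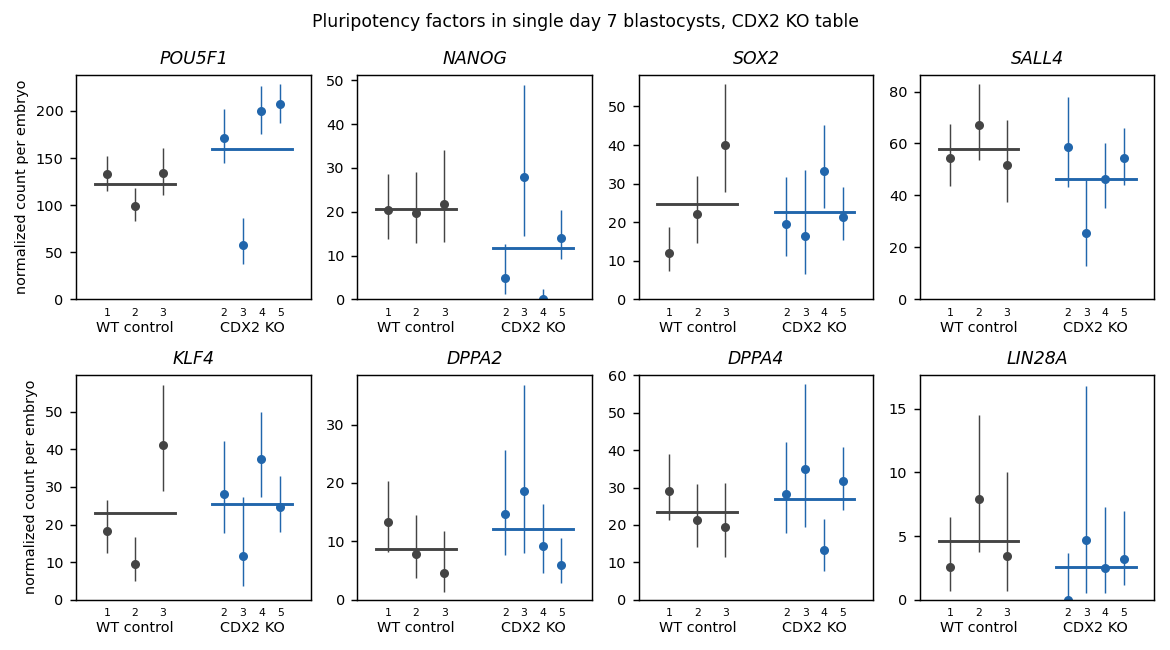
Normalized counts (vertical axes, each from 0 on its own scale) of the 8 factors in each embryo of the table of CDX2 KO, drawn as for GATA3 KO with exact Poisson 95% intervals for counting error and group means. Groups overlap for all 8 factors, and NANOG runs from 0 to 28.0 among the CDX2 KO embryos.

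TE genes in this table summed to 4959 to 12649 in WT control and 2626 to 8340 in CDX2 KO embryos over the 18 listed, and primitive endoderm genes to 1565 to 1874 and 1042 to 1948 over 12. The log2 fold change was below 0 for 10 of the 13 TE genes tested (median -0.65) and for 6 of the 8 primitive endoderm genes tested (median -0.24). Over all transcripts tested it was below 0 for 3460 of 5719, with a median of -0.15. In limma 0 of these TE and primitive endoderm genes passed or had an unadjusted p under 0.05. Both sums were lowest in CDX2 KO embryo 3, in which POU5F1 and SALL4 were also lowest but NANOG, DPPA2 and DPPA4 were the highest of the 7 embryos. In this shallowest library the high values rest on 12 (NANOG), 8 (DPPA2) and 15 (DPPA4) counts. Their counting intervals of 14.4 to 48.8, 8.05 to 36.7 and 19.6 to 57.6 reach into the WT control range. The low values rest on 25 (POU5F1) and 11 (SALL4) counts, with intervals of 37.7 to 86.0 and 12.8 to 45.9.

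For DPPA2 the log2 fold changes in the GATA3 KO and CDX2 KO comparisons were 1.99 and 0.44, for SALL4 -0.98 and -0.37, for SOX2 -0.95 and -0.02, and for NANOG -1.10 and -1.60. These pairs rest on the same WT control embryos and on tables normalized apart, and a difference between the knockouts was not tested.

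**Figure D4:**
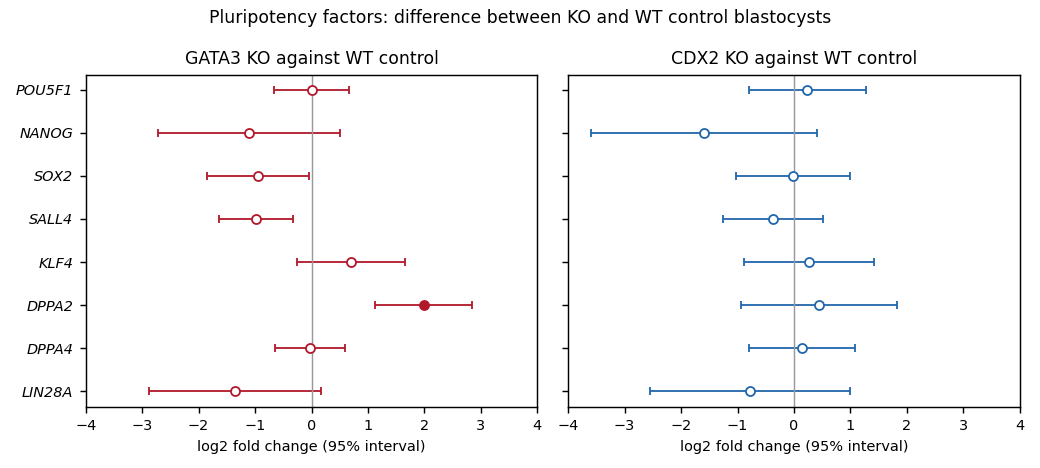
Log2 fold changes (horizontal axes, KO over WT control, on the log2(normalized count + 1) scale) of the 8 factors from limma with 95% intervals, for GATA3 KO (left) and CDX2 KO (right). The filled point, DPPA2 in GATA3 KO at 1.99, is the one that passed the test, and the intervals of NANOG reach from -2.71 to 0.51 and from -3.60 to 0.40.

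Beyond these factors, 48 genes had been listed by hand for the wider pluripotency network, of which the table of GATA3 KO listed 18 and that of CDX2 KO 24, with 11 and 13 of them tested. In neither comparison did any of them pass, the adjusted p from limma being 0.0858 to 0.985 with GATA3 KO, whereas CDX2 KO gave 0.900 to 0.954. Their median log2 fold change was -0.01 in GATA3 KO and 0.25 in CDX2 KO. Groups did not overlap for 4 of the 11 genes in GATA3 KO, 2 higher and 2 lower, and for 0 of the 13 in CDX2 KO, against 18.9% and 5.88% of all transcripts tested. At an unadjusted p under 0.05 stood 3 of the 11 genes in GATA3 KO and 0 of the 13 in CDX2 KO, against 22.6% and 3.27%.

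Among the transcription factors of that list, TFCP2L1, a factor of naive pluripotency that is also found in epithelia, was at 19.5 to 31.1 in WT control, against 8.21 to 15.9 in GATA3 KO embryos, a difference of -1.10 on the log2 scale (standard error 0.36, adjusted p = 0.0858 from limma). OTX2, a homeodomain factor of the later epiblast, went the other way, with 13.4 to 15.5 in WT control against 17.2 to 36.2 in GATA3 KO (log2 fold change 0.81, adjusted p = 0.147 from limma). KLF5, a Krüppel-like factor of TE and inner cell mass, was at 86.5 to 102 in WT control and 108 to 149 in GATA3 KO (0.42, adjusted p = 0.301 from limma). For these 3 genes no GATA3 KO embryo lay inside the WT control range. SOX15, a relative of SOX2, had a log2 fold change of 0.12. In CDX2 KO, TFCP2L1 and KLF5 had the lowest values of these factors, -0.72 and -0.51, and ETV5 and PRDM14 the highest, 0.50 and 0.41.

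Of the signalling genes, ACVR2B, a receptor for activin and NODAL, was at 19.5 to 26.4 in WT control, against 10.1 to 18.1 in GATA3 KO without overlap (log2 fold change -0.83, adjusted p = 0.157 from limma). The interleukin 6 receptor gene IL6R had a log2 fold change of -0.71 and the kinase gene JAK1 one of 0.52 in GATA3 KO, while that of STAT3, which relays signals of the interleukin 6 family, was -0.19. The corresponding log2 fold changes in CDX2 KO were -0.66 for ACVR2B, -0.27 for IL6R, 0.33 for JAK1 and 0.27 for STAT3. Of the RNA-binding and chromatin proteins, 3 of 9 were tested. Log2 fold changes in GATA3 KO were -0.30 for the DNA methyltransferase gene DNMT3B, -0.01 for the corepressor gene TRIM28 and 0.44 for the histone methylation cofactor gene WDR5, and in CDX2 KO they were 0.25, -0.28 and 0.32.

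**Figure D5:**
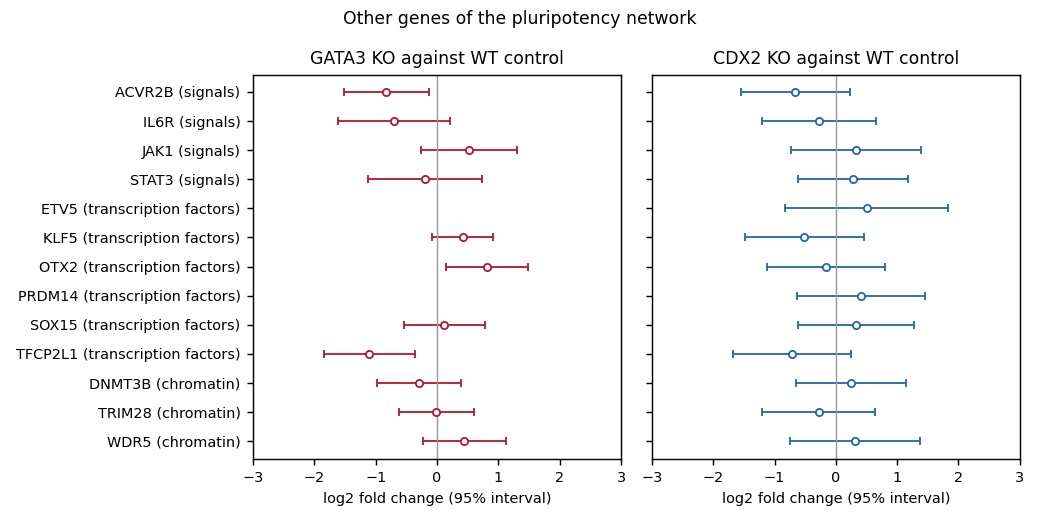
Log2 fold changes (horizontal axes, KO over WT control) of the network genes tested, with 95% intervals from limma, for GATA3 KO (left) and CDX2 KO (right). ETV5 and PRDM14 have no value for GATA3 KO, where they were not tested, and none of the genes passed the test.

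The transcripts most like each factor were taken as the 3 with the highest Pearson r of log2(normalized count + 1) over the 7 embryos of a table, as a description that includes the difference between the groups. In the table of GATA3 KO these were TMED2, RSL24D1 and DDX5 for DPPA2 (r from 0.974 to 0.987), STAB1, ARID4B and RPL12 for SALL4 (0.971 to 0.994), and YIPF2, RCC2 and HIPK3 for NANOG (0.970 to 0.984). For SOX2 they were HDGFL2, TFEB and PHF3 (0.957 to 0.971), for POU5F1 ZDHHC4, CHERP and USP10 (0.934 to 0.948), for DPPA4 GUSB, PSAP and SLC3A2 (0.879 to 0.928), and for KLF4 ANAPC15, ADISSP and ZNF638 (0.927 to 0.967). In the table of CDX2 KO, NANOG was most like PRPF4, LYN and COL4A1 (0.965 to 0.968), POU5F1 like NDUFB9, ACOT7 and EHD1 (0.977 to 0.991), and DPPA2 like LGALS3BP, PRPSAP2 and DHTKD1 (0.959 to 0.989). There SOX2 had MGST3, FILIP1 and MRRF as its nearest, DPPA4 had MAPK8, LNPK and RARA, and SALL4 had ATP2A2, NME4 and CTR9. For these 6 factors no transcript was among the 3 nearest of the same factor in both tables, although both hold the same WT control embryos.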

How the data were processed

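RNA of single blastocysts had been sequenced from libraries made by the Smart-seq2 procedure. Per the labels and methods, the authors used Trimmomatic for trimming, HISAT2 for mapping (ARS-UCD1.2), featureCounts for counting and DESeq2 for their own comparison. The signal deposited for each embryo is a normalized count, scaled by 1 size factor per embryo within its table, and 100% of the values were whole multiples of 1 step per column (within 0.02), which gave the counts. The deposited tables also hold the authors' fold changes, Wald statistics and p-values, which were not used. Accessions were named with RefSeq's ARS-UCD2.0 gene list (98.6% of each table), which also gave the order of neighbouring genes, and none of its coordinates are printed. How the authors' counting treated reads shared with gene copies is not given in the sources used here. Columns of WT control carry the labels' numbers, those of KO embryos could be matched to their group.

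limma 3.58.1 (R 4.3.3) with a trended prior was run within each table on log2(normalized count + 1), leaving out transcripts whose mean was under 10, and p-values were Benjamini-Hochberg adjusted over all of the rest. LIN28A, under that mean, was taken from the fit with no filter. Alternatives were pseudocounts of 0.1 and 5, no filter, a filter at a mean of 100, quantile normalization, median ratio rescaling, a fold change of 2 or 0.5, a Y-linked covariate (at least 3 counts), the recovered counts in edgeR 4.0.16 or DESeq2 1.42.0, and each embryo left out. Halving of the counts (CDX2 KO) and the ratio of DPPA2 to DPPA4 were added after seeing the data. The code was tested on simulated counts. Counting intervals are exact Poisson 95% intervals and, like the floor of 3 counts, cover counting error only, since the libraries hold no molecular identifiers. Named were all factors listed, the network genes at the extremes of each list or past the threshold, and 3 nearest transcripts per factor, of which those of KLF4 in the table of CDX2 KO are not reported here. Factors, lists and tests were chosen with earlier results of these data known.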

Additional observations from a re-analysis of the deposited data

How the results depend on the processing

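Of 16 results on single factors, 15 passed the threshold in no fit and 8 kept their direction in all of them. DESeq2 gave no adjusted p for NANOG and SOX2 in GATA3 KO. The same held for NANOG and DPPA2 in CDX2 KO, also on halved counts. Such fits are counted here as not passing, although they gave no verdict. DPPA2 in GATA3 KO kept its direction throughout and lost its call with the Y-linked covariate (2.08). With 1 embryo left out it ran from 1.62 to 2.29 over 7 fits, and the 4 that lost the call are named above with their adjusted p. Differences that turned sign were NANOG (0.54) and KLF4 (-0.058) in GATA3 KO and DPPA2 in CDX2 KO (-0.37), each with the Y-linked covariate, a fit that rests on the 1 KO embryo with Y-linked counts set against WT control, and the following ones. POU5F1 in GATA3 KO was at -0.00023 with a pseudocount of 0.1, -0.19 after quantile normalization, -0.11 after median ratio rescaling and -0.22 to 0.32 with 1 embryo left out. SOX2 in CDX2 KO was at 0.0016 after quantile normalization, 0.11 after median ratio rescaling, 0.0011 with DESeq2, 0.022 with edgeR and 0.018 with DESeq2 on halved counts, and -0.43 to 0.40 with 1 embryo left out. With 1 embryo left out, DPPA4 ran from -0.083 to 0.038 in GATA3 KO and from -0.0068 to 0.44 in CDX2 KO, and KLF4 in CDX2 KO from -0.22 to 0.78. The causes were not tested.

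Of all transcripts, 86 passed in GATA3 KO (66 higher, 20 lower), 145 with a pseudocount of 5, 172 with no filter, 37 with a mean of at least 100, 158 with DESeq2 (76 higher, 82 lower) and 1 with the Y-linked covariate. Quantile normalization gave 48 higher and 57 lower, median ratio rescaling 56 and 53, and edgeR 57 and 69. Leaving out 1 embryo gave 1 to 293, with 293, 1 and 18 without WT control embryos 1 to 3 and 1, 2, 39 and 183 without GATA3 KO embryos 3 to 6. In CDX2 KO 0 passed, 1 with a pseudocount of 5, a mean of at least 100, median ratio rescaling or edgeR (also on halved counts), 2 with no filter or quantile normalization, 9 with DESeq2 (also on halved counts), and 0 to 1 with 1 embryo left out, the 1 without WT control embryo 2, WT control embryo 3 or CDX2 KO embryo 3. The median log2 fold change of all transcripts tested moved from 0.11 to 0.003 (quantile) and 0.007 (median ratio) in GATA3 KO and from -0.15 to -0.04 and -0.03 in CDX2 KO. A filter at a mean of 100 left POU5F1 in CDX2 KO as the 1 factor with a value. No paired analysis was possible because WT control and KO samples are different embryos that nothing in the labels pairs, and the numbers of the KO columns do not match the labels' replicate numbers as a set. NANOG, DPPA2 and LIN28A rest on few counts, which limits what these depths can show. The same limit holds in single embryos for other factors, among them SOX2 (down to 5 counts in GATA3 KO) and KLF4 (down to 5 in CDX2 KO).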
